A study of Mus musculus with 10 samples.

Results

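The genes of MHC class I antigen presentation and of the proteasome that supplies it with peptides were followed in mouse ileum, the end of the small intestine. The 32 genes were chosen by name: B2m, the classical and non-classical heavy chains, the peptide loading genes, the inducible and constitutive proteasome subunits, and the transactivator Nlrc5. Of the 32, 28 carry probes under their platform symbol, 41 probes in all, and 23 were measured, meaning that some probe reached a detection p below 0.05 on 5 or more of the 10 arrays. The array names 16593 genes, of which 8686 were measured. H2-Q4, H2-Q6, H2-T9 and H2-T22 were matched to no probe by symbol and were not analysed. Of the 31 genes found in the RefSeq gene table, 21 lie on chromosome 17, which holds the mouse MHC.

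Illumina bead arrays were run on 5 IFNgKO ileum samples, IFNgKO_645 to IFNgKO_649, and 5 wild-type (WT) samples, WT_640 to WT_644. The labels give both groups as male, C57Bl/6, 8 weeks old, on a standard diet and free of specific pathogens, and name no treatment. IFNgKO stands for knockout of interferon gamma (IFNg), and the labels give no further detail of the allele. IFNgKO_645, IFNgKO_646, WT_640 and WT_641 belong to array set 1, and the other 3 of each group to array set 2. Whether every sample is an animal of its own is not spelled out in the labels, and the p-values then cover only how these 10 samples vary.

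Class I molecules show peptides from inside a cell to CD8 T cells. The proteasome cuts the peptides, the Tap1 and Tap2 transporter moves them into the endoplasmic reticulum, tapasin and its relatives fit them into the groove, and the heavy chain reaches the surface bound to beta-2 microglobulin. IFNg is known to raise nearly every step, and in cells that respond to it the inducible catalytic subunits Psmb8, Psmb9 and Psmb10 take the places of Psmb5, Psmb6 and Psmb7.

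Between 10618 and 12975 probes were detected per array. WT_641 stood apart, with a mean correlation of 0.949 with the other arrays, against at least 0.965 for each of the other 9, and the lowest estimated array weight, 0.28 against 0.786 to 1.69. Values are log2 normalised intensities, and the number of arrays limits their precision. A level of one probe is not set against that of another. Ifng itself was detected on no array in either group, so it does not check the genotype labels. The ileal enterocyte gene Fabp6, a bile acid binding protein, averaged 14.87 in the knockout and 15.01 in WT, and the intestinal lectin gene Lgals4 averaged 14.80 in the knockout and 14.997 in WT. In whole tissue, fewer cells of a type and less RNA per cell cannot be told apart.

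No class I or proteasome gene passed the test between knockout and WT, and the differences were small. Of the 23 measured genes, 14 were lower and 9 higher in the knockout, where 49% of all tested probes were below 0, with a median log2 difference of -0.058 and a range of -0.54 to 0.50. The median over all 12039 tested probes was 0.0044. The lower side held all 4 measured peptide loading genes and all 3 inducible catalytic subunits, and the higher side all 3 constitutive catalytic subunits, while the heavy chains lay on both sides. Scaling each array to one median in place of quantile normalisation moved the median over the whole table by 0.19. Then 9 of the 23 were below 0, with Tapbpl and Psmb8 above it. Relative to that shift 14 were lower and 9 higher, and each loading gene and each inducible or constitutive catalytic subunit lay on the side given here.

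At an adjusted p under 0.05, 0 of 23 were called (limma with array set fitted, Benjamini-Hochberg over all tested probes), against 0.0166% of all tested probes. At an unadjusted p under 0.05 there were 4 of 23, against 12.2% of all tested probes. H2-Q7 and Tap2 were lower, 2 of 23 against 6.38% of all tested probes, and H2-M3 and Psmb7 higher, 2 of 23 against 5.86%. The groups of 5 overlapped for all 23 genes, that is 0 of 23 did not, whereas 1.34% of all tested probes had groups that do not overlap, 0.631% with the knockout lower and 0.706% with it higher. Of the 31 tested probes 5 had an unadjusted p under 0.05, the fifth being a second probe of Psmb10. The plot of sample values shows the overlap gene by gene, and the plot of differences shows which intervals leave out 0.

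**Figure D1:**
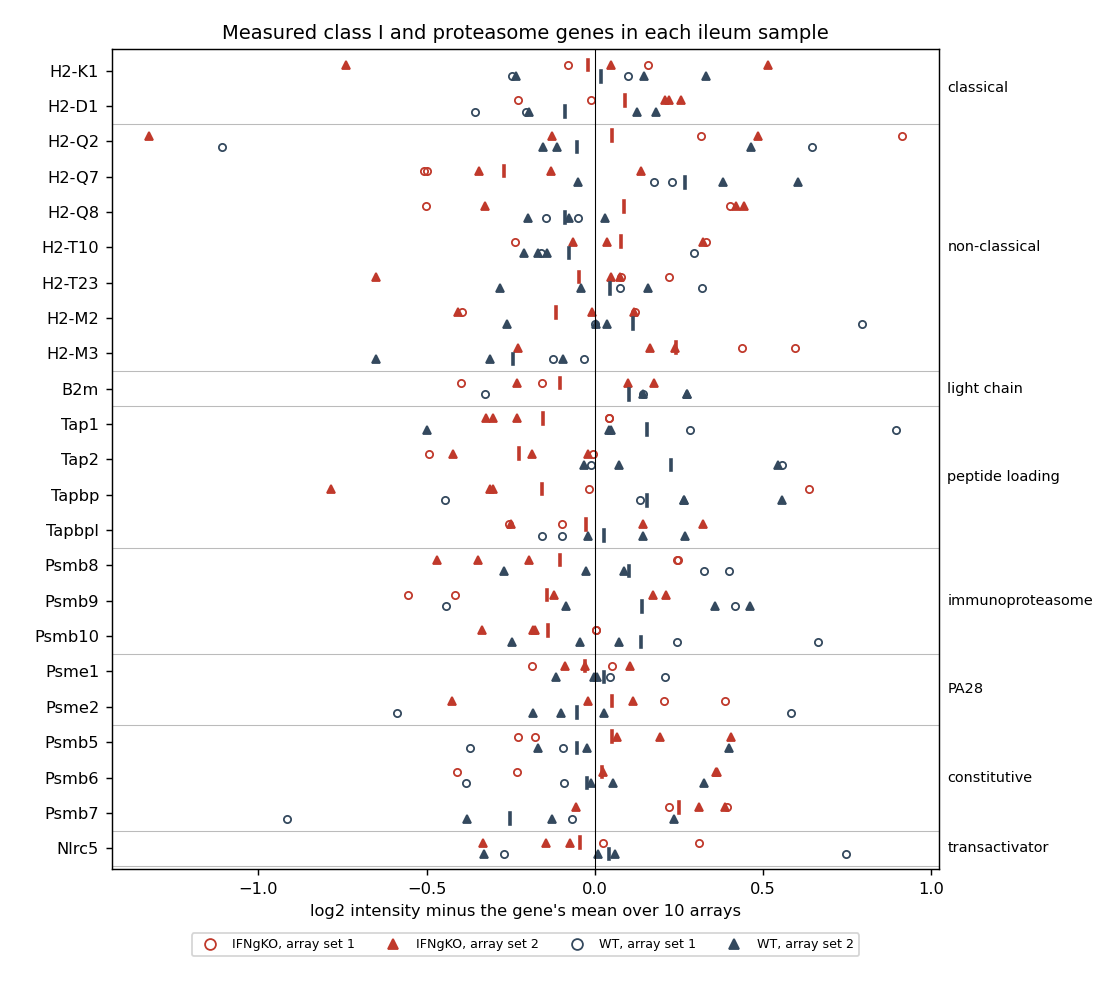
Log2 intensity of each of the 23 measured genes in each sample, relative to the gene's mean over the 10 arrays, with knockout samples (red, upper) and WT samples (grey, lower) and group means as bars; circles are array set 1 and triangles array set 2. The knockout and WT points of every gene overlap.

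**Figure D2:**
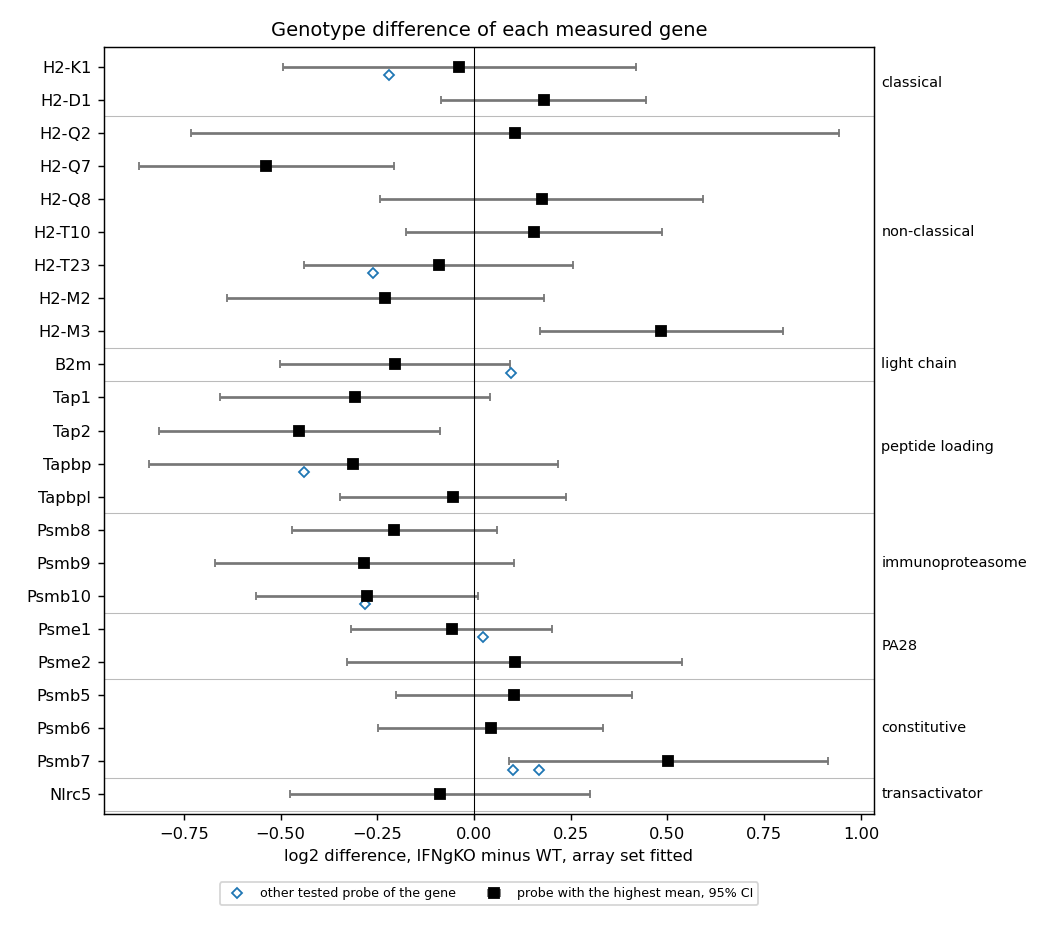
Log2 difference of knockout minus WT for each measured gene, with the 95% confidence interval of the limma fit (squares), and for the gene's other tested probes (diamonds). The intervals of H2-Q7, Tap2, H2-M3 and Psmb7 leave out 0 before adjustment; the other probes of Psmb7 lie nearer to 0.

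The classical heavy chains H2-K1 and H2-D1, which present peptides to most CD8 T cells, had no called difference. The values do not show equality, because the H2-K1 interval is wide and H2-D1 was near background. H2-K1 had log2 values of 8.63, 8.39, 8.52, 8.99 and 7.73 in IFNgKO_645 to IFNgKO_649, against 8.57, 8.22, 8.23, 8.61 and 8.80 in WT_640 to WT_644. IFNgKO_649 was the lowest and IFNgKO_648 the highest of all 10. The difference was -0.038 ± 0.21 (SE), with a 95% interval of -0.49 to 0.42 and an adjusted p of 0.959 (limma). Its second probe differed by -0.22 ± 0.16 (SE) (adjusted p = 0.588). The H2-D1 probe was near background, detected on 3 of 5 knockout and 2 of 5 WT arrays, and differed by 0.18 ± 0.12 (SE) with an adjusted p of 0.57, or by 0.081 without background subtraction. The median of the 2 genes was 0.071, and it was -0.0066 without IFNgKO_648.

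Of the 15 non-classical heavy chains listed, 11 have a probe and 7 were measured, with 3 lower, 4 higher and a median difference of 0.11. Within set 1 the median was -0.021, and within set 2 -0.025, both on the other side of 0. The 4 higher include H2-Q8 and H2-T10, both near background. H2-T10 passed the filter only through the knockout arrays, being detected on 4 of them and on 1 WT array. With only probes detected on every array the median was -0.092. H2-Q7, a Qa-2 antigen gene, had log2 values of 7.94, 7.93, 8.31, 8.58 and 8.10 in IFNgKO_645 to IFNgKO_649, against 8.67, 8.61, 8.39, 8.82 and 9.04 in WT_640 to WT_644. The knockout samples of array set 1 were lowest and WT_644 highest, with IFNgKO_648 above the lowest WT sample. The means were 8.17 ± 0.27 in the knockout and 8.71 ± 0.24 in WT (SD, n = 5 each). The difference of -0.54 ± 0.15 (SE) had a 95% interval of -0.87 to -0.21 and an adjusted p of 0.247 (limma), and it was -0.71 within set 1 and -0.42 within set 2.

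H2-M3, whose product presents formylated peptides of bacteria and mitochondria, lay on the other side. Its log2 values were 7.47, 7.63, 7.199, 6.81 and 7.27 in IFNgKO_645 to IFNgKO_649, against 7.003, 6.91, 6.94, 6.72 and 6.38 in WT_640 to WT_644. IFNgKO_648 was below 3 of the 5 WT samples, and the other 4 knockout samples were above every WT sample. The difference was 0.48 ± 0.15 (SE), with a 95% interval of 0.17 to 0.80 and an adjusted p of 0.268 (limma). It was 0.59 within set 1 and 0.41 within set 2, and 0.32 over all arrays without background subtraction.

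H2-T23, the Qa-1 gene that engages NKG2 receptors, was read by 2 tested probes. The one that stands for the gene had 12.62, 12.48, 12.48, 12.45 and 11.75 in IFNgKO_645 to IFNgKO_649, against 12.72, 12.48, 12.12, 12.56 and 12.36 in WT_640 to WT_644, and IFNgKO_649 was below the other 9. It differed by -0.092 ± 0.16 (SE) (adjusted p = 0.844, limma). The second probe read 1.88 higher in array set 2 than in array set 1, with values of 7.72, 7.66, 9.45, 9.78 and 9.26 in IFNgKO_645 to IFNgKO_649, against 8.10, 7.62, 9.69, 9.73 and 10.03 in WT_640 to WT_644. In that probe the 4 arrays of set 1 lay below all 6 of set 2, and with the sets fitted the genotype difference was -0.26 ± 0.15 (SE) (adjusted p = 0.497).

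Among the probes that stand for a gene, H2-Q2 varied most between samples, from 7.51 to 9.75 in the knockout and 7.73 to 9.48 in WT. Its genotype difference was 0.11 ± 0.39 (SE) (adjusted p = 0.932, limma), with 0.85 within set 1 and -0.39 within set 2. H2-M2 ranged from 7.53 to 8.06 in the knockout and 7.68 to 8.73 in WT and differed by -0.23 ± 0.19 (SE) with an adjusted p of 0.646. H2-Q8 and H2-T10 were near background, at 0.17 ± 0.19 (SE) and 0.15 ± 0.15 (SE), and were detected on 4 of 5 knockout arrays each, against 3 and 1 of 5 WT arrays. Without background subtraction they were at 0.086 and 0.069. The probes of H2-Q1, H2-Q10, H2-T24 and H2-T3, the thymus leukaemia antigen gene known from intestinal epithelium, were detected on no array. The 10 untested probes of the 32 genes had raw intensities of 61.1 to 110.4, and their lowest detection p was 0.0802. Several heavy chain genes are near-identical copies of each other, and the probe sequences were not used here, so a probe's signal may come from more than one of them.

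The upstream sequence of these genes is shown because H2-K1, H2-D1 and H2-Q7 carry nearly the same letters around a match to the core bound by interferon regulatory factors. Their measured differences were -0.038, 0.18 and -0.54, none called after adjustment, with H2-D1 near background. Their probes may read more than one heavy chain gene, and a link between the letters and the differences was not tested. Promoter windows from RefSeq (GRCm38.p6) were matched by symbol for 23 of the 32 genes, and the 250 bases before each start were searched on both strands. The files of the study name no build. The letters searched were GAANNGAAA, that core, the core of the interferon-stimulated response element (ISRE), which is GAAA, any 2 bases and GAAA again, TTCNNNGAA, the STAT site known as GAS, and CCAAT, the Y box letters. GAANNGAAA stood in 9 of the 23 genes' windows and in 6.31% of all 32851 windows, the ISRE core in 3 genes and 2.98%, TTCNNNGAA in 2 genes and 7.02%, and CCAAT in 14 genes and 33.9%. A gene was counted if any of its windows matched, whereas the percentages are per window, so they are not like shares. The genes with GAANNGAAA are heavy chains, several of them near-identical copies, except for the constitutive subunit Psmb6. An excess of matches was not tested. GAANNGAAA and the ISRE core cannot both match from the same base.

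These stretches run 5′ to 3′ on the strand of the gene, with the GAANNGAAA or, for H2-T23 and B2m, ISRE core match of either strand in capitals. They lie at chr17:34000419-34000447 (minus strand), chr17:35262934-35262962, chr17:35439032-35439060 and chr17:37270123-37270151 (all plus strand), chr17:36032806-36032835 (minus strand) and chr2:122147538-122147567 (plus strand).
H2-K1: atctccacagTTTCACTTCtgcacctaac
H2-D1: atctcctcagTTTCACTTCtgcacctaac
H2-Q7: atctccccagTTTCACTTCtgctcctaac
H2-M3: tcctctgaggTTTCACTTCtctgtaactc
H2-T23: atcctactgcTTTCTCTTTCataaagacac
B2m: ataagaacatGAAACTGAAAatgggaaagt
Over 29 bases the stretch of H2-K1 differs from that of H2-D1 at 1 base and from that of H2-Q7 at 2, whereas H2-M3 differs from each of the 3 at 14 bases. H2-K1, H2-D1 and H2-Q7 also carry CCAAT on both strands downstream of this match.

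B2m, the light chain that all class I molecules share, had log2 values of 13.89, 14.13, 14.46, 14.39 and 14.06 in IFNgKO_645 to IFNgKO_649, against 14.43, 13.96, 14.43, 14.56 and 14.56 in WT_640 to WT_644. WT_641 was below the other 4 WT samples, and IFNgKO_645 and IFNgKO_649 were also low. The difference was -0.20 ± 0.14 (SE) (95% interval -0.50 to 0.092, adjusted p = 0.566, limma). A second probe differed by 0.095 ± 0.18 (SE) (adjusted p = 0.855), so the 2 probes have opposite signs. Its remaining probe was detected on no array.

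The 4 measured peptide loading genes were all lower in the knockout, with a median of -0.31 (-0.29 within set 1 and -0.28 within set 2), and none passed 5% after adjustment, with Tap2 at an unadjusted p under 0.05. Tap2, a chain of the peptide transporter, had log2 values of 9.97, 9.48, 9.55, 9.79 and 9.95 in IFNgKO_645 to IFNgKO_649, against 9.96, 10.53, 10.52, 10.04 and 9.94 in WT_640 to WT_644. WT_641, WT_642 and WT_643 were above every knockout sample, and WT_640 and WT_644 lay within the knockout range. The difference was -0.45 ± 0.17 (SE), with a 95% interval of -0.82 to -0.088 and an adjusted p of 0.343 (limma), and it was -0.52 within set 1 and -0.40 within set 2.

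Tap1, the partner chain, had log2 values of 6.92, 6.92, 6.57, 6.55 and 6.64 in IFNgKO_645 to IFNgKO_649, against 7.16, 7.77, 6.92, 6.38 and 6.92 in WT_640 to WT_644. WT_641 was the highest and WT_643 the lowest of all 10. The difference was -0.31 ± 0.16 (SE) (95% interval -0.66 to 0.041, adjusted p = 0.455, limma). Tapbp, which encodes tapasin, had 8.05, 8.71, 7.77, 7.76 and 7.29 in IFNgKO_645 to IFNgKO_649, against 8.21, 7.63, 8.34, 8.34 and 8.63 in WT_640 to WT_644. IFNgKO_646 was the highest and IFNgKO_649 the lowest of all 10, and in array set 2 the 3 knockout samples were below the 3 WT samples. It differed by -0.31 ± 0.25 (SE) (adjusted p = 0.626), but by 0.46 within set 1 and -0.83 within set 2. Its second probe, at -0.44 ± 0.26 (SE) (adjusted p = 0.519), was lower in both array sets (-0.14 and -0.64). Tapbpl, the tapasin-like editor, ranged from 8.30 to 8.88 in the knockout and 8.40 to 8.82 in WT and was at -0.054 ± 0.14 (SE) (adjusted p = 0.891). Erap1, the peptidase that trims peptides in the endoplasmic reticulum, was detected on no array with either of its 2 probes.

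Tap1 and Psmb9 lie head to head on chromosome 17, with 225 bases between their annotated starts. Their measured differences were -0.31 and -0.28, neither called after adjustment, and -0.18 and -0.12 without WT_641. A link between the shared stretch and the differences was not tested. This stretch (chr17:34187331-34187555, GRCm38.p6, plus strand, the direction of Tap1) is printed because both genes start from it, with CCAAT in capitals. It holds none of the other 3 searched motifs.
Tap1: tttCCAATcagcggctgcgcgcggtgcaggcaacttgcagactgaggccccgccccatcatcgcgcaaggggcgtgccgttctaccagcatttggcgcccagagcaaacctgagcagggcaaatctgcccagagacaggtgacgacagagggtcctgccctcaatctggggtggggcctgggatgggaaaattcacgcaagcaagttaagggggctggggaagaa
Psmb8 lies beyond Tap1 on the same chromosome, and 60 bases of its upstream window (chr17:34198075-34198134, plus strand) are shown for the TTCNNNGAA match, in capitals, which starts 97 bases before the gene.
Psmb8: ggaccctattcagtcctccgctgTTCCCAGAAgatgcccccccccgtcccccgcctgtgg
A match is a description of the letters, not a site, and no match says only that these letters are not in the window.

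The 3 inducible catalytic subunits were all lower in the knockout, with a median log2 difference of -0.28 (-0.45 within set 1 and -0.16 within set 2), and none passed 5% after adjustment or an unadjusted p under 0.05 on the probe that stands for it. Psmb10, which replaces Psmb7, had log2 values of 12.14, 12.14, 11.95, 11.95 and 11.80 in IFNgKO_645 to IFNgKO_649, against 12.38, 12.80, 12.09, 11.89 and 12.21 in WT_640 to WT_644. All 5 knockout samples were below WT_640, WT_641 and WT_644, and 4 of 5 were above the lowest WT sample. The difference was -0.28 ± 0.13 (SE) (95% interval -0.56 to 0.0099, adjusted p = 0.416, limma). Its second probe had 11.75, 11.68, 11.37, 11.55 and 11.71 in IFNgKO_645 to IFNgKO_649, against 12.04, 12.005, 11.75, 11.76 and 11.93 in WT_640 to WT_644, and in it IFNgKO_645 lay just above WT_642 while the other 4 knockout samples were below every WT sample. That probe differed by -0.28 ± 0.12 (SE) (adjusted p = 0.374).

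Psmb9, which replaces Psmb6, had log2 values of 8.50, 8.36, 8.80, 9.13 and 9.09 in IFNgKO_645 to IFNgKO_649, against 8.48, 9.33, 9.27, 8.83 and 9.38 in WT_640 to WT_644. WT_640 lay between the knockout samples of array set 1, which include the lowest of all 10. The difference was -0.28 ± 0.18 (SE) (adjusted p = 0.544, limma), with -0.47 within set 1 and -0.16 within set 2, and -0.12 without WT_641. Psmb8, which replaces Psmb5, had 7.06, 7.06, 6.35, 6.47 and 6.62 in IFNgKO_645 to IFNgKO_649, against 7.21, 7.14, 6.54, 6.79 and 6.90 in WT_640 to WT_644, and the 4 arrays of set 1 were above all 6 of set 2. It differed by -0.21 ± 0.12 (SE) (adjusted p = 0.521), or by -0.12 without background subtraction. The PA28 activator genes Psme1 and Psme2, which open the proteasome's gate, differed by -0.058 ± 0.12 (SE) and 0.10 ± 0.20 (SE) (adjusted p = 0.869 and 0.857). Psme1 ranged from 11.91 to 12.20 in the knockout and 11.98 to 12.30 in WT, and Psme2 from 9.30 to 10.11 in the knockout and 9.13 to 10.30 in WT.

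The 3 constitutive catalytic subunits were all higher in the knockout, with a median of 0.10 (0.032 without WT_642), and none passed 5% after adjustment, with Psmb7 at an unadjusted p under 0.05. Psmb7 had log2 values of 11.19, 11.36, 11.35, 11.28 and 10.91 in IFNgKO_645 to IFNgKO_649, against 10.90, 10.05, 10.59, 11.20 and 10.84 in WT_640 to WT_644, on the probe with the highest mean. WT_641 was the lowest, and WT_643 alone lay within the knockout range, the other 4 WT samples being below it. The difference was 0.50 ± 0.19 (SE) (95% interval 0.089 to 0.91, adjusted p = 0.349, limma). Its other 2 probes were higher by 0.17 ± 0.17 (SE) and 0.10 ± 0.12 (SE) (adjusted p = 0.705 and 0.764). Psmb5 differed by 0.10 ± 0.14 (SE) and Psmb6 by 0.043 ± 0.14 (SE) (adjusted p = 0.794 and 0.918). Psmb5 ranged from 8.32 to 8.95 in the knockout and 8.18 to 8.95 in WT, and Psmb6 from 11.06 to 11.84 in the knockout and 11.09 to 11.80 in WT.

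Each inducible subunit was then set against the constitutive one it replaces, as a log2 ratio within each array. A shift that all probes of an array share cancels in it, whereas an array set effect that differs by probe does not. Psmb10 over Psmb7 gave 0.95, 0.78, 0.60, 0.68 and 0.88 in IFNgKO_645 to IFNgKO_649, against 1.48, 2.74, 1.504, 0.69 and 1.37 in WT_640 to WT_644. WT_643 lay within the knockout range and the other 4 WT samples above it, WT_641 by the most. The difference was -0.78 ± 0.30 (SE), with an exact permutation p of 0.0333 and 0.1 after adjustment over the 3 pairs (two-sided, labels permuted within array sets, 120 assignments, smallest possible p 0.0167). A single pair at that smallest p reaches 0.05 after adjustment, so it could not pass by itself. With the other tested probes of both genes the difference ranged from -0.78 to -0.38, with exact permutation p of 0.0167 to 0.0833 and 0.05 to 0.15 after adjustment.

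Psmb8 over Psmb5 gave -1.31, -1.26, -2.39, -2.14 and -2.33 in IFNgKO_645 to IFNgKO_649, against -0.96, -1.31, -1.83, -2.16 and -1.62 in WT_640 to WT_644, and within each array set the knockout and WT values overlapped. In this ratio every array of set 1 lay above every array of set 2, in both genotypes. The difference between genotypes was -0.31 ± 0.13 (SE), with an exact permutation p of 0.1 and 0.15 after adjustment. Psmb9 over Psmb6 gave -2.75, -2.70, -2.71, -2.71 and -2.75 in IFNgKO_645 to IFNgKO_649, against -2.91, -1.76, -2.19, -2.70 and -2.42 in WT_640 to WT_644. The SD was 0.023 in the knockout and 0.45 in WT (n = 5 each), whose range enclosed the knockout values. The difference was -0.33 ± 0.21 (SE), with an exact permutation p of 0.15, unchanged by the adjustment. All 3 ratios were lower in the knockout. Such a ratio shows unequal change only, not which subunit differed.

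**Figure D3:**
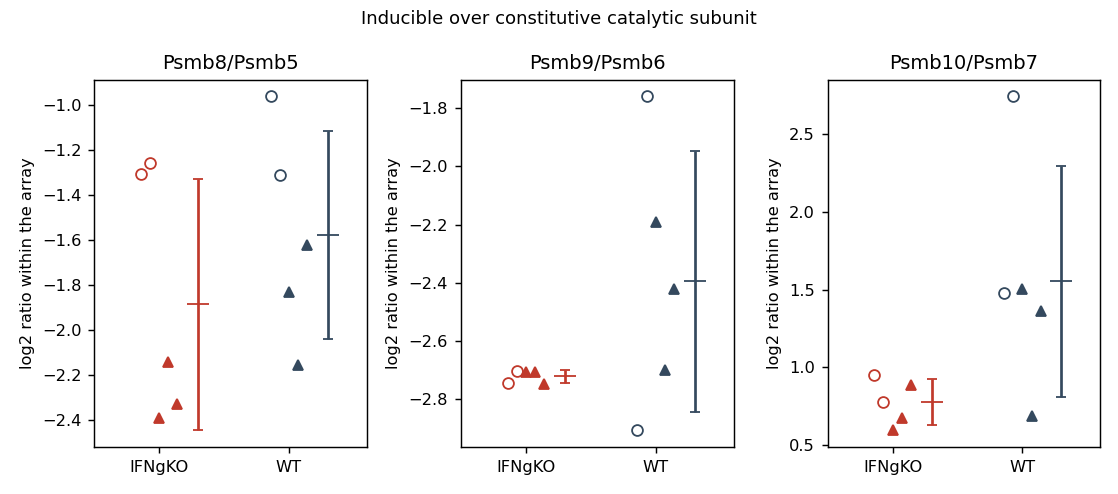
Log2 ratio of the inducible over the constitutive catalytic subunit within each array, in knockout and WT samples, with mean ± SD (n = 5) beside them; circles are array set 1 and triangles array set 2. The Psmb9/Psmb6 ratio of the knockout samples lies between -2.75 and -2.70, inside the wider WT range.

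The rest of the proteasome was read beside the catalytic subunits. Of 11 other 20S core subunits 9 were measured, and all 9 were higher in the knockout, by 0.040 to 0.28, with a median of 0.13. None passed 5% after adjustment (lowest adjusted p = 0.422, limma) or at an unadjusted p under 0.05. Psma7 differed by 0.28 ± 0.14 (SE) and Psmb3 by 0.24 ± 0.12, and for Psmb3 every knockout sample was above every WT sample, as for 0.706% of all tested probes. Of 18 listed subunits of the 19S cap, which unfolds proteins for the core, 13 were measured, 5 lower and 8 higher, with a median of 0.066. Within set 1 that median was -0.078, and within set 2 0.10. The sign was the same in both sets for 6 of the 13, against 62.3% of all tested probes. In the 19S cap Psmd14 was at 0.38 ± 0.21 and Psmd8 at -0.16 ± 0.15. Psmd14 was detected on 4 knockout and 3 WT arrays and read 1.92 higher in array set 2 than in array set 1. Without background subtraction it was at 0.24. Of 8 other activators and assembly factors 6 were measured, 2 lower and 4 higher, with a median of 0.044 (-0.039 within set 1 and 0.12 within set 2). Among them Psmg1 was at 0.16 ± 0.12 and Pomp at -0.15 ± 0.13.

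The endoplasmic reticulum chaperones that help class I fold were higher in all 3 measured of 4, with a median of 0.38. The third by p was near background, detected on 4 knockout and 3 WT arrays. It was at 0.17, or 0.080 without background subtraction. Pdia3, the disulfide isomerase of the loading complex, was at 0.38 ± 0.14 (SE) and Calr, calreticulin, at 0.52 ± 0.22, with adjusted p-values of 0.327 and 0.377 (limma) and both at an unadjusted p under 0.05. Within set 1 Calr differed by 1.14, and within set 2 by 0.11. Of 7 cytosolic peptidases 4 were measured, 3 lower and 1 higher, with a median of -0.040, Thop1 at -0.12 ± 0.17 and Nrd1 at -0.075 ± 0.13. Under median scaling, relative to its shift of all probes, the 20S core had 9 of 9 above, the chaperones 3 of 3, the 19S cap 9 of 13, the other activators 5 of 6 and the peptidases 1 of 4. The plot of groups sets these lists beside all tested probes.

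**Figure D4:**
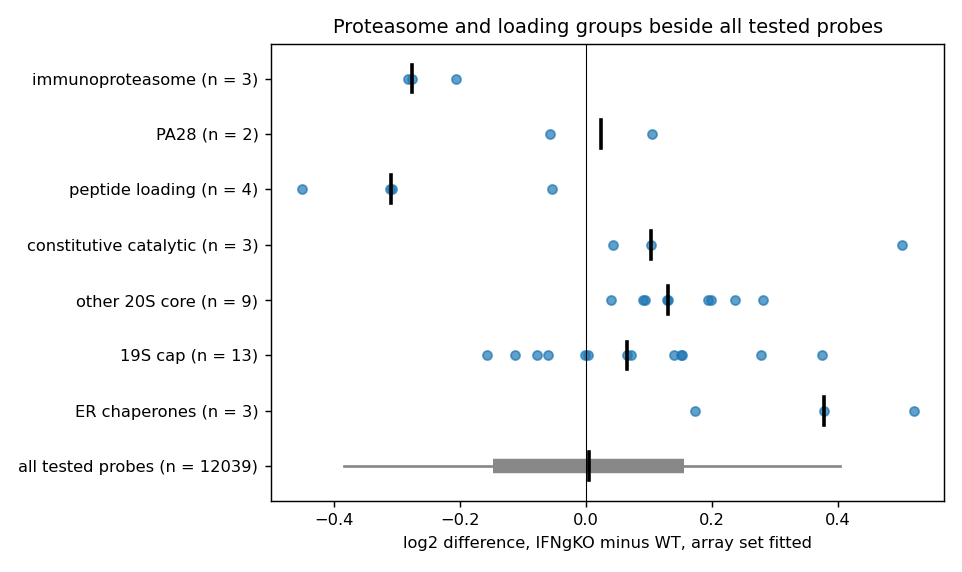
Log2 difference of knockout minus WT for each measured gene of the groups named on the axis (points, with the median as a bar) and for all 12039 tested probes (thin line 5th to 95th percentile, thick line 25th to 75th percentile, bar median). Over all probes the 5th and 95th percentiles are -0.38 and 0.40.

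Nlrc5, the transactivator that is known to drive class I genes with Tap1 and the inducible subunits, was near background. Its probe was detected on 2 of 5 knockout and 3 of 5 WT arrays, with log2 values of 5.55, 5.84, 5.19, 5.38 and 5.45 in IFNgKO_645 to IFNgKO_649, against 6.28, 5.26, 5.59, 5.54 and 5.20 in WT_640 to WT_644. WT_640 was the highest, and the difference was -0.087 ± 0.18 (SE) (adjusted p = 0.867, limma), or -0.042 without background subtraction. Of 16 other regulators 11 were measured, 6 lower and 5 higher, with a median of -0.013 (0.11 within set 1 and -0.092 within set 2). The IFNg receptor chain Ifngr2 was at -0.38 ± 0.15 (SE) and the factor Irf2 at 0.36 ± 0.19, with adjusted p-values of 0.349 and 0.454. Irf1, the IFNg-induced activator of many class I promoters, was at 0.095 ± 0.15 (adjusted p = 0.824), and was chosen after its value was seen.

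Class I-like genes outside the main complex lay on both sides. Fcgrt, the neonatal Fc receptor that also pairs with beta-2 microglobulin, averaged 10.07 ± 0.19 in the knockout and 10.66 ± 0.42 in WT (SD, n = 5 each), a difference of -0.58 ± 0.16 (SE, adjusted p = 0.242, limma). Cd1d1, which presents lipids to natural killer T cells, was at 0.41 ± 0.15 (adjusted p = 0.343). Of this list 3 of 5 were measured, and none passed 5% after adjustment.

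Genotype differences were compared between the array sets. Of the 23 genes, 16 had the same sign in both sets, against 62.3% of all tested probes. The interaction of genotype and array set passed 5% after adjustment for none of them and for 0% of all tested probes. It had an unadjusted p under 0.05 for Tapbp (0.00398, adjusted p = 0.999, limma) among the 23, against 3.17% of all tested probes. Array set itself differed past 5% for 3 of the 23, Tap1, Psmb8 and Psmb6, against 19.2% of all tested probes. Set 2 minus set 1 was -0.53 for Tap1, -0.51 for Psmb8 and 0.46 for Psmb6.

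**Figure D5:**
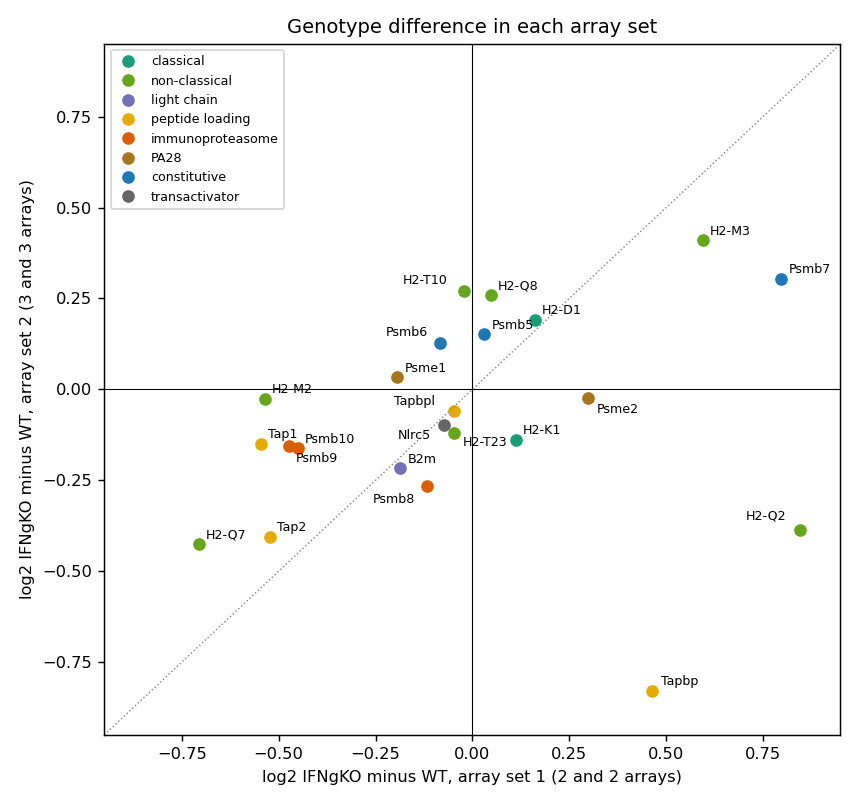
Log2 difference of knockout minus WT for the 23 genes in array set 1 (2 knockout and 2 WT arrays, x axis) against array set 2 (3 and 3 arrays, y axis), coloured by role; the dotted line marks equal differences. H2-Q7, Tap2, H2-M3 and Psmb7 have the same sign in both sets, whereas H2-Q2 and Tapbp have opposite signs.

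Cell type markers were read beside these genes. All 4 measured T cell markers of 8 were higher in the knockout, with a median of 0.53. Among them Cd8b1 was at 1.14 ± 0.24 (SE) and Cd3d at 0.47 ± 0.14, with adjusted p-values of 0.189 and 0.268 (limma). All 4 had an unadjusted p under 0.05, against 5.86% of all tested probes that were higher at that p. Cd8b1 was detected on 4 of 5 knockout and 1 of 5 WT arrays, so 4 of its 5 WT values are not above background. It passed the filter of 5 arrays only through the knockout arrays, where it is high, so its p adds no support. Without background subtraction the T cell median was 0.34, Cd8b1 was at 0.57 and Cd3d at 0.26. Cd8a and Cd4 were not measured. The log2 of the summed intensity of the 4 was 8.27 to 9.23 in the knockout and 8.13 to 8.40 in WT. The 4 measured macrophage and dendritic cell markers of 8 were also all higher, with a median of 0.43. They summed to 10.75 to 11.34 in the knockout and 10.17 to 11.14 in WT. C1qb was at 0.51 ± 0.15 and Mrc1 at 0.51 ± 0.16, and these 2 of the 4 had an unadjusted p under 0.05 (limma). The 1 measured B cell marker of 5, Cd79b, was at 0.49 ± 0.20, or 0.26 without background subtraction. The 7 measured epithelial markers of 8 summed to 16.32 to 16.68 in the knockout and 16.30 to 16.81 in WT, with a median difference of 0.082, Lgals4 at -0.20 ± 0.13 and Krt20 at 0.11 ± 0.15. The 5 smooth muscle markers were all higher too over the 10 arrays, with a median of 0.12 and none at an unadjusted p under 0.05. Within set 1 their median was -0.17, and within set 2 0.39. Only 1 of the 5 had the same sign in both sets, against 62.3% of all tested probes. The smooth muscle markers summed to 15.73 to 15.83 in the knockout and 15.27 to 15.82 in WT, with Tagln at 0.46 ± 0.23 and Des at 0.21 ± 0.18. Of the ileal enterocyte genes, Fgf15 was at 0.50 ± 0.41 and Fabp6 at -0.14 ± 0.12, and of 5 pancreas genes only Ctrb1 was measured, at -0.28 ± 0.18, or -0.13 without background subtraction. The part of these cell types in the class I values was not tested.

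Single samples set several of the extremes. IFNgKO_646 was the lowest of the 10 samples for 7 of the 23 genes and IFNgKO_649 for 5. WT_641 was the highest for 5 and WT_640 for 4. WT_641, the array with the fewest detected probes, was the highest for Tap1, Tap2, Psmb10, Psme1 and H2-M2 and the lowest for Psmb7 and Psme2. Leaving it out, the median of the inducible catalytic subunits was -0.19, against -0.28 with it, and the Psmb10 over Psmb7 difference was -0.51, against -0.78 with it. Without WT_641, 12 of the 23 genes moved by over 1.5 times, to -0.11 for H2-K1, -0.28 for H2-Q2, -0.060 for H2-M2, -0.18 for Tap1, -0.52 for Tapbp, -0.12 for Psmb9, -0.012 for Psme1, -0.10 for Psme2, 0.16 for Psmb5, 0.018 for Psmb6, 0.32 for Psmb7 and -0.25 for Nlrc5, with H2-Q2 and Psme2 changing sign.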

How the data were processed

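Per the file headers, the deposited non-normalised table gives an intensity per probe and array, and a detection p-value beside each. The authors' deposited value table holds intensities of the same probes that, set against the first table, are linear, quantile normalised and not centred. The tool lumi is named in the submitters' processing notes, with no step given. The non-normalised intensities were background corrected by normexp, using control levels that limma infers from the detection p-values, then given an offset of 16, quantile normalised and put on the log2 scale (limma 3.58.1, R 4.3.3). Array brightness over background limits what could be measured. The test took the 12039 of 25697 probes with a detection p below 0.05 on 5 or more arrays, in limma with array set and genotype fitted, and p-values adjusted by Benjamini-Hochberg over all of them. The tested probe with the highest mean stood for a gene. Gene names came from the platform table, which names 23978 probes. Within-array ratios of 3 subunit pairs were tested by exact permutation. Alternatives covered background, offset, scaling, filter, array set, variance model, probe choice and each sample left out. Apart from the members, the text names the 2 measured genes of each list with the lowest p, or the only measured one. Irf1 was added after its value was seen, and Cd8a and Cd4 are named as not measured. The members and lists were chosen with earlier results of these data known.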

Additional observations from a re-analysis of the deposited data

Results flagged for a closer look

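Among 68 groups of 5 samples looked at, 5 held a sample that stood apart from the other 4 by Dixon's ratio at 5 samples (critical value 0.71), and chance gives about 1 in 20. H2-T10 read 5.74 in WT_640, with the other WT samples at 5.24 to 5.31. H2-T23, on the probe that stands for it, read 11.75 in IFNgKO_649, with the other knockout samples at 12.45 to 12.62. H2-M2 read 8.73 in WT_641, with the other WT samples at 7.68 to 7.97. B2m, on its first probe, read 13.96 in WT_641, with the other WT samples at 14.43 to 14.56. Psme1, on its second probe, read 12.22 in WT_640, with the other WT samples at 11.48 to 11.60.

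Both knockout samples of set 1 were above the WT mean of that set for Tapbp, and all 3 of set 2 were below theirs. Its genotype difference was 0.46 within set 1 and -0.83 within set 2, with an interaction p of 0.00398 and an adjusted p of 0.999 (limma). For the second probe of Psme1 the sides were the other way round, with differences of -0.072 within set 1 and 0.089 within set 2, an interaction p of 0.597 and an adjusted p of 0.999 (limma).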

How the results depend on the processing

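In every alternative run, 0 of the measured genes (19 under the stricter filter, 23 otherwise) passed 5% after adjustment (limma). The lowest adjusted p among them was 0.247 as reported and 0.156 to 0.90 over the alternatives. Over all tested probes 2 passed, against 10 with median scaling, 5 with offset 50, 5 with the authors' value table, 4 with a variance trend and robust fit, 1 with the stricter filter, 1 with no array set term, 0 with either array set alone and 1 to 4 with each sample left out. Median scaling shifted all tested probes by 0.19, and moved the peptide loading median to -0.077, the inducible catalytic median to -0.071 and the constitutive one to 0.33, against -0.31, -0.28 and 0.10 as reported. Relative to that shift they were -0.26, -0.26 and 0.14. With each sample left out the loading median was -0.35 to -0.24, the constitutive one 0.032 to 0.19 and the classical heavy chain median of 0.071 was -0.0066 to 0.17, and the classical one was -0.038 with the stricter filter, which leaves out H2-D1, and 0.028 without background subtraction. The inducible median was -0.46 with set 1 alone, -0.16 with set 2 alone and -0.34 to -0.19 with each sample left out. The non-classical heavy chain median of 0.11 became -0.092 with the stricter filter, -0.018 with set 1 alone, -0.025 with set 2 alone, -0.015 with array weights and -0.099 to 0.18 with each sample left out (-0.060 without WT_641, -0.099 without IFNgKO_645 and -0.049 without IFNgKO_648).

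Single genes turned sign as follows, none past the threshold. Median scaling gave 0.20 for H2-K1, 0.087 for H2-T23, 0.18 for Tapbpl, 0.0041 for Psmb8 and 0.11 for Psme1. Array set 1 alone gave 0.12 for H2-K1, -0.018 for H2-T10, 0.48 for Tapbp and -0.085 for Psmb6. Array set 2 alone gave -0.38 for H2-Q2, 0.031 for Psme1 and -0.023 for Psme2. Array weights gave -0.015 for H2-Q2. Another probe gave 0.095 for B2m and 0.024 for Psme1; other probes and the probe pairs of Psmb10 and Psmb7 were added after seeing the data. With each sample left out the ranges, Psmb9 keeping its sign, were -0.18 to 0.16 for H2-K1, -0.28 to 0.45 for H2-Q2, -0.16 to 0.042 for H2-T23, -0.12 to 0.034 for Tapbpl, -0.39 to -0.12 for Psmb9, -0.10 to 0.25 for Psme2, -0.0042 to 0.11 for Psmb6 and -0.25 to 0.068 for Nlrc5. The causes were not tested.

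The ratio of Psmb10 over Psmb7 differed by -0.96 to -0.51 with each sample left out, that of Psmb8 over Psmb5 by -0.39 to -0.23 and that of Psmb9 over Psmb6 by -0.49 to -0.14. The lowest p after adjustment over the 3 pairs was 0.05 in any setting (exact permutation). In the main run that is also the lowest that a single pair can reach. This limit is lower where labels were permuted over all 10 arrays, with no array set term or array set as a random block. It is higher with either array set alone. No paired analysis was possible because each sample has a number of its own that no sample of the other group shares. Brightness over background limits H2-D1, H2-Q8, H2-T10 and Nlrc5, which were detected on only 5 to 7 of the 10 arrays, and 5 genes gave no detected signal.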
